A study of Arabidopsis thaliana with 6 samples.

Results

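The M-alpha MADS-box genes around AGL62 are 7 Arabidopsis thaliana genes listed by locus: AGL62 (AT5G60440), AGL40 (AT4G36590), AGL91 (AT3G66656), AGL23 (AT1G65360), AGL28 (AT1G01530), AGL61 (AT2G24840) and AGL29 (AT2G34440). They were chosen with earlier results of these data known. All 7 had a row among the 33323 loci of the expression table. RNA came from whole seeds cut out of the silique 6 days after hand self-pollination of Col-0 wild type plants (WT) or of plants of the Col-0 background carrying DD25::IaaH. Each genotype had 3 libraries, which the design text calls biological replicates. The IaaH enzyme, taken from bacteria, turns indole-3-acetamide into auxin. The promoter that drives it, DD25, belongs to a gene of the central cell, the cell whose fertilisation founds the endosperm. Every seed of both groups holds endosperm, embryo and seed coat together, so fewer cells of a tissue and less RNA per cell cannot be told apart. How many independent transgenic lines were used is not given in the sources used here. Values are RPKM, read numbers scaled to gene length and library size, so levels can be set side by side between genes.

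MADS-box proteins are transcription factors that bind DNA as dimers. The M-alpha class belongs to the type I branch, and its proteins pair mostly with type I proteins of the M-gamma class. In Arabidopsis many type I genes act in the female gametophyte and in the endosperm, the nourishing tissue that first divides as free nuclei and later forms cells. AGL62 holds back this cell formation: in its absence the endosperm makes walls too early. The comparison bears on how auxin made in the seed relates to the timing of endosperm cell formation.

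The 7 genes carry the same DNA-binding box. The stretch of 60 coding bases that was most alike in all 7 lies inside the box, from coding base 66 to 125 in AGL62 and from 234 to 293 in AGL61, whose box comes later. It is shown as the part most alike in the 7 genes, with capitals at the 31 positions where all 7 have the same base. The alignment held only these 7 genes, so the shared positions are not known to be particular to the M-alpha class.
AGL62: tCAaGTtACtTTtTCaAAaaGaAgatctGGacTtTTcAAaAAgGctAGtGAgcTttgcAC
AGL40: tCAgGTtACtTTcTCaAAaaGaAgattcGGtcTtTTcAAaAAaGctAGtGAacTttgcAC
AGL91: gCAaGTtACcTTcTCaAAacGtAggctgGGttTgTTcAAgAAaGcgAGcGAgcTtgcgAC
AGL23: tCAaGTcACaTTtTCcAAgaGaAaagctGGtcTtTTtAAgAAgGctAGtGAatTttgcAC
AGL28: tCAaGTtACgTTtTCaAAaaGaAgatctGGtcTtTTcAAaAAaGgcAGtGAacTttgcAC
AGL61: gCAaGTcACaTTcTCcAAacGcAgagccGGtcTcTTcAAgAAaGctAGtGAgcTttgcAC
AGL29: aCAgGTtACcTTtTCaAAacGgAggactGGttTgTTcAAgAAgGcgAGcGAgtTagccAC
These are reference sequences on the coding strand, read from RefSeq's annotation of TAIR10.1, at chr5:24306394-24306453 (+) for AGL62, chr4:17262065-17262124 (-) for AGL40, chr3:2091689-2091748 (-) for AGL91, chr1:24281402-24281461 (+) for AGL23, chr1:193538-193597 (-) for AGL28, chr2:10581315-10581374 (+) for AGL61 and chr2:14527000-14527059 (+) for AGL29. All 7 stretches are exonic and coding. In this stretch AGL28 shared 54 of the 60 bases with AGL62, AGL40 shared 53, AGL23 shared 49, AGL61 shared 47, AGL29 shared 43 and AGL91 shared 41. Over whole coding sequences AGL62 and AGL40 had the same base at 68.0% of the positions where both have one. The pair most alike was AGL23 and AGL28, at 82.7%. Among 100 other annotated MADS-box genes the longest exact run shared with any member was 31 bases, between AGL23 and AGL28. No stretch of 50 bases from any of the 7 transcripts occurred elsewhere on the nuclear chromosomes. Reads were 125 bases long.

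In DD25::IaaH seeds 6 of the 7 genes rose, and the seventh, AGL61, stayed below the filter for testing. A gene was tested when its mean over the 6 libraries was at least 0.5 RPKM, and called at an adjusted p under 0.05 in limma's linear model. Higher calls made up 8.25% of all 20880 tested genes and lower calls 6.72%. The tested members' median log2 fold change was 2.43, against 0.03 over all tested genes. In all 6 called genes every DD25::IaaH library lay above every WT library, a pattern found in 18.4% of tested genes. AGL29 passed the filter through its DD25::IaaH libraries, since its WT mean was 0.440 RPKM, so it had to differ to be tested at all. The other 5 called genes had WT means above the filter.

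AGL62, the repressor of endosperm cell formation, was a weakly expressed gene in WT seeds. Its level was 0.845, 0.395 and 0.736 RPKM in WT 1 to 3 and 4.61, 3.54 and 4.76 RPKM in DD25::IaaH 1 to 3. The 3 transgenic libraries lay close together, and the lowest of them was 4.19 times the highest WT library. The reads behind these values, rebuilt from the steps in which RPKM values rise, were 17, 4 and 8 in WT and 56, 26 and 49 in DD25::IaaH. For AGL62 and AGL29 a gene length 2 times as great also gives whole reads, so their read numbers are the lowest that the values allow. Pooled over 3 libraries this gives 0.706 RPKM in WT, with an exact 95% Poisson interval of 0.473 to 1.01, and 4.40 RPKM in DD25::IaaH, with an interval of 3.68 to 5.22. The intervals cover counting error only. The log2 fold change on the log2(RPKM + 0.5) scale was 2.06 ± 0.26 (SE), with limma's adjusted p at 0.00091.

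AGL40 showed the greatest change of the 7. Its role in the seed is less well known than that of AGL62, and the reference gives its locus no gene name. In WT 1 to 3 it stood at 3.34, 2.70 and 2.83 RPKM, and in DD25::IaaH 1 to 3 at 128, 70.0 and 93.2 RPKM. The WT libraries agree closely, and the DD25::IaaH libraries spread from DD25::IaaH 2 at the bottom to DD25::IaaH 1 at the top without coming near WT. The lowest transgenic library was 21.0 times the highest WT library. These levels rest on 24 to 59 reads in a WT library and 452 to 1368 reads in a DD25::IaaH library. By fitted log2 fold change AGL40 was 58th among the 20880 tested genes.

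AGL91 was expressed in WT at nearly the same level as AGL40. It had 2.93, 2.91 and 2.71 RPKM in WT 1 to 3 and 25.5, 18.1 and 25.6 RPKM in DD25::IaaH 1 to 3. Its WT values differ little between libraries, with 14 to 28 reads behind each. The log2 fold change was 2.79 ± 0.18 (SE), the smallest error of the 6, with limma's adjusted p at 1.55e-05.

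AGL23, needed for female gametophyte development and for chloroplast formation in the embryo, was close to the limit of detection in WT. It had 0.661, 0.164 and 1.22 RPKM in WT 1 to 3, from 8, 1 and 8 reads. In DD25::IaaH 1 to 3 it had 15.4, 7.91 and 11.3 RPKM, from 113, 35 and 70 reads. WT varied widely at these few reads, and the lowest transgenic library was 6.47 times the highest WT library. The log2 fold change of AGL23 was 3.41 ± 0.37 (SE), with limma's adjusted p at 0.000362.

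AGL28, known for promoting flowering when it is overexpressed, had 1 WT library well above the others. It had 0.673, 2.38 and 0.830 RPKM in WT 1 to 3 and 9.15, 4.30 and 6.14 RPKM in DD25::IaaH 1 to 3. WT 2 was that library, and DD25::IaaH 2, the lowest transgenic library, was 1.81 times WT 2. The log2 fold change was 2.03 ± 0.39 (SE), with limma's adjusted p at 0.00828.

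AGL29 was weakly expressed in both genotypes. Its level was 0.456, 0.302 and 0.563 RPKM in WT 1 to 3 and 2.01, 1.04 and 2.82 RPKM in DD25::IaaH 1 to 3, from 2 to 6 and 5 to 19 reads. The groups did not overlap, but the call was narrow: limma put the log2 fold change at 1.33 ± 0.35 (SE) and its adjusted p at 0.0375. It was lost without WT 1 (adjusted p 0.0896), WT 2 (0.113), DD25::IaaH 1 (0.124) or DD25::IaaH 3 (0.142), each in the same limma model. On the opposite strand AGL29 overlaps AT2G34450, which was not called (log2 fold change -0.03), and the strand setting of the counting is not given in the sources used here.

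AGL61, also called DIANA, acts in the central cell, where its protein pairs with the M-gamma protein AGL80. It had 0.181, 0 and 0.669 RPKM in WT 1 to 3 and 1.20, 0 and 0.823 RPKM in DD25::IaaH 1 to 3. The groups overlapped, and each held 1 library with no read, where the limit that 3 reads set was 0.359 RPKM for WT 2 and 0.495 RPKM for DD25::IaaH 2. With 9 reads in all WT libraries and 19 in all DD25::IaaH libraries, the pooled levels were 0.265 RPKM (exact Poisson interval 0.121 to 0.503) and 0.772 RPKM (0.465 to 1.21). These intervals overlap. With every detected gene admitted to the test, AGL61 had a log2 fold change of 0.50 and an adjusted p of 0.581 in limma.

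**Figure D1:**
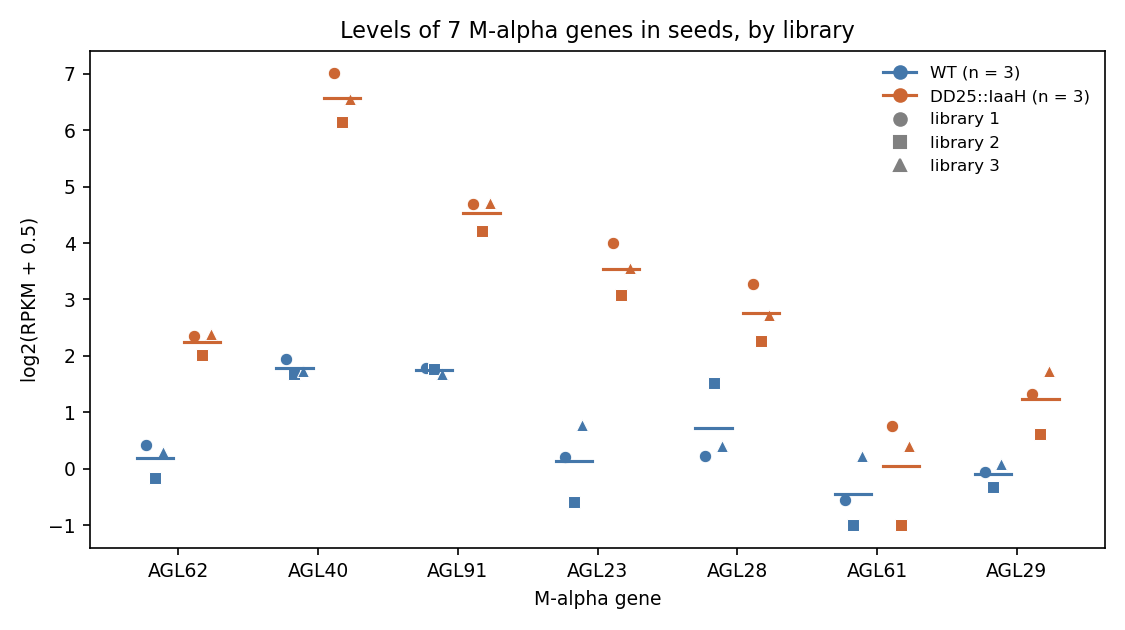
Level of each M-alpha gene as log2(RPKM + 0.5) on the vertical axis, with 1 point per library, shapes for the library number and lines for the mean of the 3 libraries of a genotype. The genotypes are apart for every gene but AGL61, and DD25::IaaH 2 is the lowest transgenic library for all 7.

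The order of the levels changed little between the genotypes, but the distances did. In WT seeds AGL40 and AGL91 led at 2.95 ± 0.338 and 2.85 ± 0.121 RPKM (SD, n = 3) and their ranges overlapped. Below them AGL28, AGL23, AGL62, AGL29 and AGL61 followed, each overlapping the next. In DD25::IaaH seeds AGL40 stood alone at 97.1 ± 29.2 RPKM, followed by AGL91 at 23.0 ± 4.30 RPKM (SD, n = 3), and these ranges were separate. AGL23, at 11.5 ± 3.77 RPKM, had moved above AGL28, at 6.53 ± 2.45 RPKM, with overlapping ranges (SD, n = 3). AGL62, at 4.30 ± 0.665 RPKM (SD, n = 3), overlapped AGL28 above it and was separate from AGL29 below it.

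AGL40 therefore took a greater part of the summed RPKM of these 7 genes, a sum that leaves out the other M-alpha genes. The summed level of the 7 genes was 8.85 to 9.56 RPKM in the WT libraries and 104.9 to 186 RPKM in the DD25::IaaH libraries. AGL40 made up 36.7%, 30.5% and 29.6% of the sum in WT 1 to 3, and 68.9%, 66.8% and 64.4% in DD25::IaaH 1 to 3. AGL62 made up 4.47% to 9.30% in WT and 2.48% to 3.38% in DD25::IaaH. Without AGL40 the other 6 genes summed to 5.75 to 6.73 RPKM in WT and 34.9 to 57.9 RPKM in DD25::IaaH.

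**Figure D2:**
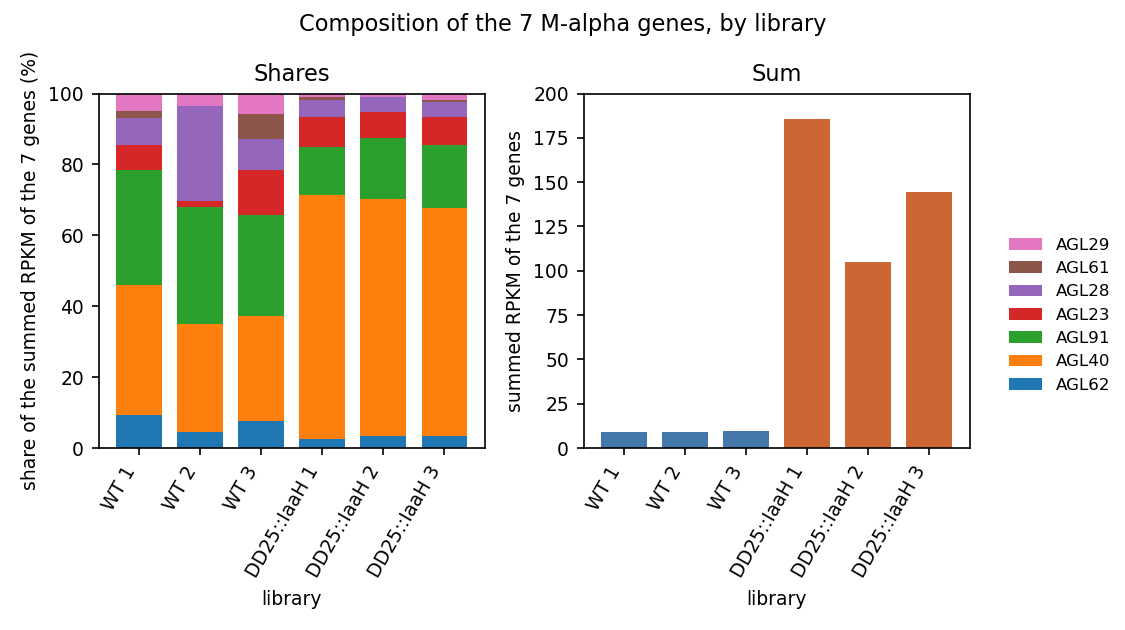
Left, share in percent of each of the 7 genes in their summed RPKM, per library; right, that sum in RPKM. AGL40 holds 29.6% to 36.7% of the sum in WT and 64.4% to 68.9% in DD25::IaaH.

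Whether the genes changed by different amounts was asked by the log2 ratio of each member to AGL62 within a library, both as RPKM + 0.5, over 6 pairs of genes. The difference in this ratio, DD25::IaaH minus WT, was 2.72 for AGL40, 1.34 for AGL23, 0.73 for AGL91 and -0.74 for AGL29. On that scale the 3 ratios of each genotype did not overlap in these 4 pairs. A two-sided exact permutation test gave p = 0.1 for each, the smallest that 3 libraries against 3 allow, and 0.12 after adjustment over the 6 pairs, so none could pass. Without the added 0.5 RPKM, AGL91 over AGL62 was 3.47, 7.37 and 3.69 in WT 1 to 3. In DD25::IaaH 1 to 3 it was 5.53, 5.10 and 5.37, so these ranges overlap. The plain ratios of AGL29 to AGL62 overlapped too, so for AGL91 and AGL29 the separation depends on the added 0.5 RPKM. Those of AGL40 to AGL62 stayed apart, at 3.84 to 6.83 in WT and 19.6 to 27.8 in DD25::IaaH. The pair of AGL61 with AGL62 is not read here, since AGL61 had no read in 1 library of each genotype and the added 0.5 RPKM sets much of its ratio. For AGL28 the difference was -0.03, with overlapping ranges and an exact permutation p of 1.

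The rest of the type I branch, taken from a list of loci, gave more genes that rose and none that fell. Of 17 other M-alpha genes 6 were tested, 3 rose and 3 did not pass, and 11 were below the filter. Higher calls made up 8.25% of all tested genes and lower calls 6.72%. AGL102 was the one with a substantial level, at 9.73, 6.44 and 13.1 RPKM in WT 1 to 3 and 47.6, 29.7 and 43.2 RPKM in DD25::IaaH 1 to 3. That is a higher WT level than any of the 7 genes around AGL62. Its log2 fold change was 2.01 ± 0.26 (SE), with limma's adjusted p at 0.000989. AGL59 rose from 0.205 to 1.66 RPKM and AGL64 from 0.401 to 1.78 RPKM, both weakly expressed and both passing the filter through DD25::IaaH. AGL58 did not pass, with a mean of 0.268 RPKM in WT seeds against 2.01 RPKM in the transgenic seeds. The count of 3 was 1 without DD25::IaaH 1 and 1 without DD25::IaaH 3.

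The M-gamma genes encode the usual partners of M-alpha proteins. Of 16 listed 12 were tested, 9 rose, 0 fell and 3 did not pass. Over all tested genes 8.25% rose and 6.72% fell. The 4 with the smallest adjusted p were PHE1, AGL35, AGL45 and AGL36, with log2 fold changes of 4.28, 3.37, 3.06 and 2.64. AGL36, AGL90 and AGL96, all among the 9, had WT means under the filter (0.204, 0.0779 and 0.330 RPKM), so they were tested only through DD25::IaaH and had to differ. With WT 3 as the one WT library the count of 9 was 2. PHE1 and PHE2 are related copies whose likeness was not measured here, so their reads may have been split by the counting. AGL80, the partner of AGL61, had 5.24, 3.37 and 4.81 RPKM in WT 1 to 3 and 5.04, 5.88 and 3.90 RPKM in DD25::IaaH 1 to 3. These ranges overlap, with a log2 fold change of 0.13 and a 95% interval of -0.38 to 0.65. AGL80 was chosen for mention after its values were seen.

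M-beta genes were hardly expressed: 1 of 18 was tested. It was AGL49, which rose from 1.26 to 3.76 RPKM, with limma's adjusted p at 0.0393. Its call was lost without any 1 of the libraries other than WT 3. Type II MADS-box genes, the branch that holds the flower and seed coat regulators, moved both ways at near the share of all genes. Of 43 listed 28 were tested, 2 rose (AGL18 and SEP2) and 3 fell (AGL15, AGL13 and AGL72). AGL13 was listed at 0 in every DD25::IaaH library and passed the filter only through WT. The median log2 fold change of the 28 was 0.02. Leaving out single libraries gave 9 calls without WT 3 and 3 calls without any 1 of WT 1, WT 2, DD25::IaaH 1 and DD25::IaaH 3.

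**Figure D3:**
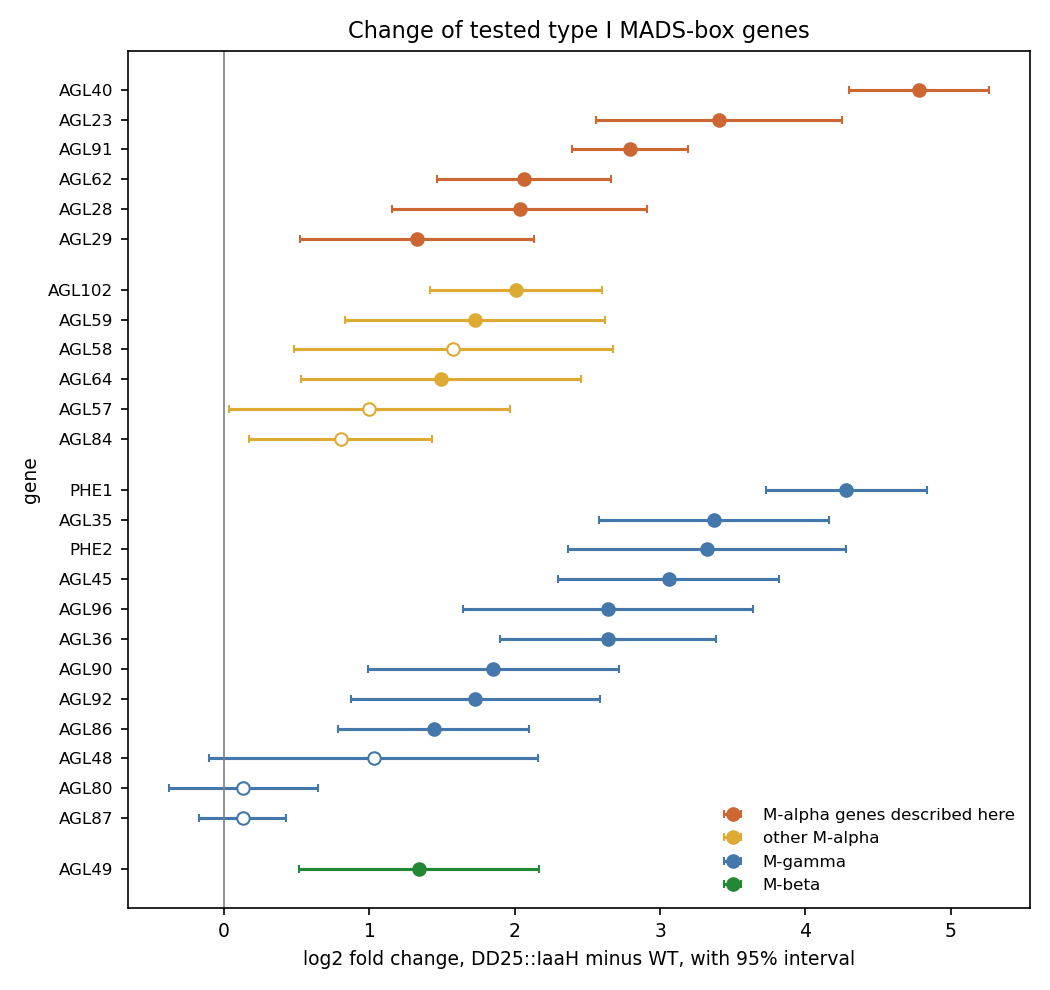
Log2 fold change of the tested type I genes on the horizontal axis, DD25::IaaH minus WT, with unadjusted 95% intervals from limma; filled points have an adjusted p under 0.05. AGL40 at 4.78 and PHE1 at 4.28 lie farthest to the right, and AGL80 and AGL87 at 0.13 lie near 0.

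Markers of the seed tissues also moved, where 8.25% of all tested genes rose and 6.72% fell. Of 6 endosperm markers 3 rose and 0 fell. The summed level of the 6 was 119.7 to 157 RPKM in the WT libraries and 160.3 to 186 RPKM in the transgenic ones. Most of that sum was SUC5, which was not called, at 102 RPKM in WT seeds against 130 RPKM in DD25::IaaH. MINI3, a factor of endosperm growth, passed the filter only through DD25::IaaH and so had to differ. It had 0.115, 0 and 0 RPKM in WT 1 to 3 and 0.954, 2.21 and 2.18 RPKM in DD25::IaaH 1 to 3. FIS2, a Polycomb protein gene of the endosperm, had 1.02 to 1.91 RPKM in the WT libraries and rose to between 3.58 and 4.22 RPKM, and FWA, an imprinted gene, rose from 3.11 to 8.91 RPKM. ZOU, needed for endosperm breakdown, did not pass, at 33.5 RPKM in WT seeds against 28.8 RPKM in DD25::IaaH. Of 6 embryo markers 2 fell and 0 rose. The sum of the 6 was 230.0 to 235 RPKM in the WT libraries and 178 to 211 RPKM in the transgenic ones. Most of it was LEC1, which was not called, at 159 RPKM in WT seeds against 148 RPKM in DD25::IaaH. Of 6 seed coat markers 3 rose and 1 fell, with a sum of 1526 to 1736 RPKM in WT and 1505 to 1600.2 RPKM in DD25::IaaH. Of 4 pollen markers 2 were tested and 0 passed in limma, 0 of them at an unadjusted p under 0.05, and none was at 0 in all libraries. The part of these shifts in the rise of the M-alpha genes was not tested.

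The libraries differed in depth as the RPKM steps show it, from about 17785000 reads in WT 1 to 6495060 in DD25::IaaH 2. Among 4837 loci annotated as pseudogenes 79.1% were detected in WT 1 and 61.2% in WT 2, whereas the other 4 libraries detected 23.3% to 33.9%. The median pseudogene stood at 0.207 RPKM in WT 1 and 0.0900 RPKM in WT 2 and at 0 in the others. These medians are below the level of AGL62 in the same libraries and above that of AGL61, which had 0.181 RPKM in WT 1 and no read in WT 2. With WT 3 as the one WT library, AGL62, AGL40, AGL91 and AGL23 still passed, with limma's adjusted p of 0.0444, 0.00942, 0.0154 and 0.0456. In that comparison AGL28 and AGL29 did not, at 0.0872 and 0.349, and 790 genes passed over the whole table.

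The loci beside the 7 genes were examined because 81 genes were close to absent in DD25::IaaH seeds, 0 of them on chromosome 1. Such a gene had at least 3 RPKM in every WT library and more than 15 times less than the lowest WT value in every DD25::IaaH library, a rule chosen with the values known. AGL40 lies 0.298 Mb from the nearest such gene and AGL62 lies 0.571 Mb from one, measured between gene starts on TAIR10.1. For AGL91, AGL61 and AGL29 the nearest was 3.47, 3.94 and 7.88 Mb away. AGL23 and AGL28 are on chromosome 1. Whether these positions bear on the levels of the 7 genes was not tested.

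Of the 5 tested loci on each side of AGL62, 1 rose and 2 fell, among them its next neighbour ARF4, an auxin response factor gene, with a log2 fold change of -0.63. The one that rose, AT5G60553, chosen for mention after its values were seen, had a greater log2 fold change than AGL62, at 3.87. Beside AGL40 2 of 10 rose and 0 fell, and these were its nearest neighbours, AT4G36580 and AT4G36600, with log2 fold changes of 0.82 and 1.49. Beside AGL91 1 of 10 fell, its next neighbour ALDH22A1, with a log2 fold change of -1.17. Beside AGL28 and AGL29 no locus passed in limma, with the smallest adjusted p at 0.0956 (CYP86A4) and 0.0757 (CYP710A2). AGL23 shares its neighbourhood with the M-gamma pair: 3 of 10 rose, of which PHE1 and PHE2 are 2, and 1 fell. Beside AGL61 3 of 10 rose. The median log2 fold change of the 10 neighbours lay between -0.02 and 0.33 for every member. Over all tested genes higher calls made up 8.25% and lower calls 6.72%. Whether neighbours change together with the members was not tested.

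**Figure D4:**
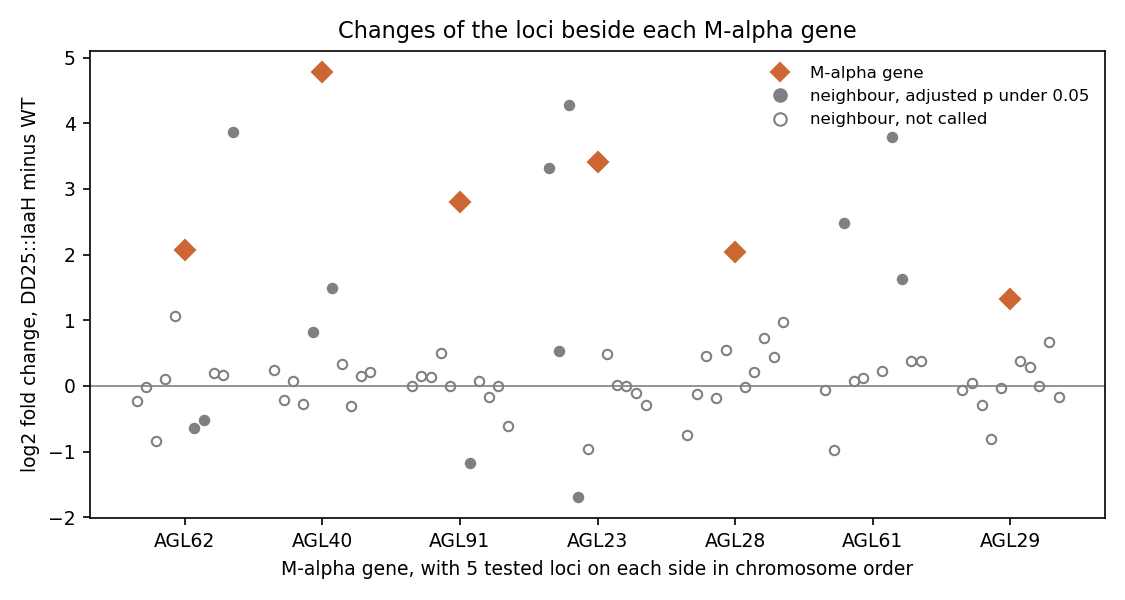
Log2 fold change, DD25::IaaH minus WT, of each tested M-alpha gene (diamonds) and of the 5 tested loci on each side in chromosome order (circles, filled where the adjusted p is under 0.05). AGL61 was not tested and has no diamond. Each diamond stands above the nearest circle on either side. AT5G60553 is the filled circle highest beside AGL62, and PHE1 and PHE2 are the high circles left of AGL23.

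The promoters were searched for 3 motifs in the 250 bases before each annotated gene start, on both strands: the CArG box bound by MADS-box proteins, the auxin response element TGTCTC and AAACCCTA, the telobox linked to Polycomb recruitment. The CArG box was found in 1 of 7, the promoter of AGL23, against 2.55% of 26699 promoters of protein-coding genes. TGTCTC was found in 0 of 7, against 10.9%, and AAACCCTA in 0 of 7, against 4.45%. With 1 match in all, no matches overlapped. These counts describe the letters in this window only. The promoters of AGL23, with the CArG box in capitals, and of AGL40, the gene with the greatest change, are given as the contrast with and without a match.
AGL23: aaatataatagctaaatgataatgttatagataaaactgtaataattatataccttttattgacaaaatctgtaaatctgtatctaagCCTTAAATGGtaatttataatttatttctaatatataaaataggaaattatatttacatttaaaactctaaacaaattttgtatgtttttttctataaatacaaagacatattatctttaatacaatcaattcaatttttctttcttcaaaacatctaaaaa
AGL40: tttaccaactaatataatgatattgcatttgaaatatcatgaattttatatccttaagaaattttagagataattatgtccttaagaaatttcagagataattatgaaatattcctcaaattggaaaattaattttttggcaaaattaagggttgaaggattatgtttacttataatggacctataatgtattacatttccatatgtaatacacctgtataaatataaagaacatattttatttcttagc
They are RefSeq's TAIR10.1 sequence at chr1:24281087-24281336 (+ strand) and chr4:17262228-17262477 (- strand), each ending at the base before the annotated start. All 7 windows are poor in G and C, at 17.2% to 24.8%. For AGL62 the annotated start lies 948 bases before the start codon, while the smallest gene length that gives whole reads from its RPKM values was 1131 bases, against 2044 exon bases in this annotation. For AGL29 the figures are 279 bases, 740 bases and 1064 exon bases. Either window may not be the promoter in the gene model the authors used. The window of AGL29 also overlaps the gene AT2G34450. For AGL23 and AGL91 the annotated start is the start codon itself, at 0 bases. For AGL28 and AGL61 it lies 8 and 13 bases before the start codon. The windows of these 4 genes, with the CArG box of AGL23, may therefore include transcribed bases.

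Genes with a pattern most like that of AGL62 or AGL40 were found by Pearson's r of log2(RPKM + 0.5) over the 6 libraries, among 19318 tested genes whose mean reached 1 RPKM. The libraries form 2 groups, so r is only a measure of likeness here. For AGL62 they were AT1G58055, AT2G25185, AT3G45245, EXPB4 (AT2G45110), an expansin gene, and AT3G15530. For AGL40 they were AT3G07270, AT4G11560, AT5G38930, EXPA23 (AT5G39280), also an expansin gene, and AT2G42640. The r of these 10 was 0.998 to 0.999, and many other genes had an r nearly as high. A high r does not mean a change of like size. The log2 fold changes of the 5 genes for AGL40 ran from 0.47 (AT4G11560) to 5.28 (EXPA23). AT2G42640, at 0.52, was not called. None was a MADS-box gene of the lists. Between AGL40 and AGL91 r was 0.998, and between AGL62 and AGL40 it was 0.987.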

How the data were processed

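Gene expression was measured by RNA sequencing of polyadenylated RNA from 6 seed libraries, 3 per genotype, as paired 125-base reads. The authors deposited 1 table of RPKM values, normalised for gene length and library size. The submitters' processing notes name TopHat2 2.1.0 as a tool and TAIR10 as the build. The counting tool and its strand setting: not given in the sources used here. Columns were matched to samples by genotype and replicate number in the labels.

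RPKM values rise in steps worth 1 read. The steps gave each library's depth, and, with the smallest gene length that holds the coding sequence and makes all 6 values whole within 0.01 reads, the reads of each gene. Counts of 1 to 20 reads were even in 54.6% to 57.3% of genes. Where both mates of a pair were counted, the counting intervals are too narrow. Values were tested as log2(RPKM + 0.5) in R 4.3.3 by limma 3.58.1 (eBayes with a variance trend, 1 genotype term, two-sided), with Benjamini-Hochberg adjustment over all 20880 tested genes; all adjusted p-values are from this fit unless another is named. The test was tried on simulated data first. Alternatives changed the pseudocount, filter, scaling, trend, block, test and libraries. Gene names, neighbours and sequences came from RefSeq's TAIR10.1, which matched 32835 loci; coding sequences were aligned with MAFFT 7.526 and Biopython 1.88.

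The 7 genes and the lists were chosen with earlier results of these data known. Named were the 7, up to 4 tested genes of each MADS-box list by adjusted p, the 5 genes most like AGL62 and AGL40, and nearest neighbours. Other list members, tissue markers and loci beside a member that are named were chosen after their values were seen.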

Additional observations from a re-analysis of the deposited data

How the results depend on the processing

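Across 16 alternatives AGL62, AGL40, AGL91 and AGL23 rose and passed in each, with log2 fold changes of 1.68 to 2.65, 4.56 to 4.99, 2.62 to 2.99 and 2.76 to 4.23. AGL28 passed in all but the comparison with WT 3 alone (log2 fold change 2.34). AGL29 was untested with a filter of 2 RPKM, ranged from 1.07 to 1.63 when single libraries were left out, and was 1.14 with WT 3 alone. In that comparison WT 3 is assumed to vary like the DD25::IaaH libraries. Calls among the members were 5 to 6 without single libraries and 4 with WT 3 alone. Median-of-ratios and quantile scaling changed no member's call. The count over all genes was 1914 (without DD25::IaaH 1) to 4145 (without WT 3), with 1966, 1938 and 2022 without WT 1, WT 2 and DD25::IaaH 3, and 790 with WT 3 alone. Without single libraries the other M-alpha calls were 1 to 2, the M-beta calls 0 to 1 and the type II calls 3 to 9. With WT 3 alone, the M-gamma, M-beta and type II calls were 2, 0 and 1. With a filter of 2 RPKM 1 other M-alpha gene was tested and called, and no filter, quantile scaling and no variance trend each left 0 M-beta calls. The cause of these changes was not tested. Same-numbered libraries of the genotypes did not deviate together (correlations of -0.08, -0.03 and -0.10), so the numbers were not taken as pairs. No library correlated best with its own number. With the replicate number as a block, 6 members passed, with AGL62 at an adjusted p of 0.0026 and AGL29 at 0.0443. AGL61 and AGL29 rest on few reads, 9 and 12 over all WT libraries.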
